A study of Homo sapiens with 17 samples.

Results

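Secreted or surface-delivered proteins of mucosal defence were followed through head and neck cancer cells by the RNA of 10 genes, taken by symbol: DMBT1, FCGBP, LTF, PI3, SLPI, LCN2, PIGR, DEFB1, WFDC2 and LYZ. All 10 had a row among the 34496 genes of the count table, and 8 passed the filter on low counts, which kept 13241 genes. DEFB1 and LYZ did not pass. DMBT1, FCGBP, LTF and PI3 had stood out in earlier results of these data for their rise with the EZH2 inhibitor EPZ-6438, so the inhibitor's values for the 10 genes are given below as a description, and nothing is read from how many of them pass the threshold applied to all genes.

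RNA was sequenced after ribosomal RNA depletion from Cal27, which derives from a squamous carcinoma of the tongue, and from the cancer lines SKN3 and BICR78. There were 2 libraries of Cal27_NSD1KO, the labelled NSD1 knockout of Cal27, with EPZ-6438, 2 of the same labelled knockout with DMSO, and 2 of Cal27 with DMSO. EPZ-6438 (tazemetostat) blocks the enzyme that methylates lysine 27 of histone H3, and NSD1 methylates lysine 36 of that histone. A second set of untreated libraries held 1 each of Cal27_NSD1KO, SKN3, BICR78 and Cal27. The labels give no dose, no duration and no number of clones, so an effect of the loss of NSD1 and one of the line itself cannot be told apart, and no library of Cal27 with EPZ-6438 was analysed here. Total counts ran from 11745655 to 15509079 per library with EPZ-6438 or DMSO and from 17587063 to 21738951 in the untreated libraries.

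Mucosal surfaces are coated with proteins that bind, starve or lyse microbes and that restrain the proteases of inflammation. Epithelial cells make them in glands and, at low level or on stimulation by cytokines such as IL-17, in stratified epithelium. Several (LTF, LCN2, LYZ and SLPI) are also stored in granules of neutrophils or made by macrophages. Levels are given as CPM (counts divided by the library's total and put on a common scale) after TMM scaling over the 10 libraries, and are compared between libraries for a gene, never between genes, because the counts were not divided by transcript length.

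The knockout label does not show in the NSD1 level. NSD1 had 165 and 164 CPM in the labelled knockout with DMSO, against 113 and 114 CPM in Cal27 with DMSO. A count per gene does not show whether a transcript is edited, so it does not check the label, and directions below are those of the labelled knockout. In BICR78, NSD1 had 9 counts, or 0.468 CPM. The 9 squamous epithelium markers were detected in every library, with a summed level of 2374 and 2418 CPM in the labelled knockout with EPZ-6438, 3801 and 3947 CPM with DMSO, and 8754 and 8658 CPM in Cal27 with DMSO. Of 14 leukocyte markers, MPO, ELANE, JCHAIN and MS4A1 were at 0 counts in all 10 libraries. The list summed to 2.82 and 3.93 CPM with EPZ-6438 against 1.79 and 1.24 CPM in the labelled knockout with DMSO. In Cal27 with DMSO it summed to 3.16 and 2.46 CPM. CSF1R was the only one of the 14 markers to pass the low-count filter, and it made up most of these sums. It was at 2.05 and 2.96 CPM with EPZ-6438, against 1.09 and 0.657 CPM in the labelled knockout with DMSO. In Cal27 with DMSO it was at 1.69 and 1.64 CPM.

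RefSeq promoter windows of build GRCh38.p14 were found for 6 of the 10 genes. Windows for PI3, SLPI, DEFB1 and LYZ were not found. The 250 bases before the start site are shown for 4 genes, each with 1 window. DMBT1 and FCGBP had the largest changes with EPZ-6438, LCN2 and WFDC2 the smallest among the genes tested. Capitals mark matches, on either strand, to the NF-kappaB-type pattern (GGG and CC with any 5 bases between them), the C/EBP-type pattern TTNNGNAA and the TATA pattern TATAAA.
DMBT1 (chr10:122560504-122560753, plus strand): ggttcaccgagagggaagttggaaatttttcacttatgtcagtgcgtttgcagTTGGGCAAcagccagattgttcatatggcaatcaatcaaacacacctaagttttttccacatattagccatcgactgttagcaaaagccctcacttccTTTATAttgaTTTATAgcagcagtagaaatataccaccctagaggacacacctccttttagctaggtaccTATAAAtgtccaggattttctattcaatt
FCGBP (chr19:39934635-39934884, minus strand): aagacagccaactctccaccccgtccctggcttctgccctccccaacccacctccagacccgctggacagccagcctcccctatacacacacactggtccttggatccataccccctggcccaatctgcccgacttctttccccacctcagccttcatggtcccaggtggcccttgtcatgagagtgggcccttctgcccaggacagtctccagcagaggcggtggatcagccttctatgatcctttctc
LCN2 (chr9:128149203-128149452, plus strand): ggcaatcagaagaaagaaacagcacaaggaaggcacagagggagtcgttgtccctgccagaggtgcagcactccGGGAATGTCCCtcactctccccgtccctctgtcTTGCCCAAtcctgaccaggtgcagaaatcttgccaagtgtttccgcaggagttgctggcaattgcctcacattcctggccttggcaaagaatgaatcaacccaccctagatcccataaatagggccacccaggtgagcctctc
WFDC2 (chr20:45469503-45469752, plus strand): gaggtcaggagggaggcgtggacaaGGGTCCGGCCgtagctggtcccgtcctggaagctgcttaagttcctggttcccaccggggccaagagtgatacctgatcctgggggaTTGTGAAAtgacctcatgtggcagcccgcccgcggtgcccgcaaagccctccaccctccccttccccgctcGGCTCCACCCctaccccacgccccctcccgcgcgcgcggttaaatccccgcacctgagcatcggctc
The 4 stretches differ in base composition. G and C make up 39.6% of the DMBT1 stretch, 60.8% of FCGBP, 54.8% of LCN2 and 67.2% of WFDC2, against a median of 58.0% over 35116 windows. WFDC2 holds 19 CpG pairs, DMBT1 3, FCGBP 4 and LCN2 4. LCN2 holds overlapping matches to the NF-kappaB-type pattern from 176 to 166 bases before the start, and WFDC2 holds 2 further apart. That pattern is found in 54.4% of all windows, the C/EBP-type pattern in 33.2% and the TATA pattern in 10.7%. DMBT1 has a TATA match from 29 to 24 bases before the start. No match to these patterns, nor to TTCNNNGAA (6.57% of windows), the interferon-type pattern of GAAA and GAAA with any 2 bases between them (3.02%), TGANTCA (6.57%) or AGGAAG (28.7%), lies in the FCGBP stretch. A match is a description of letters and not a measured binding site.

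DMBT1 and FCGBP encode large glycoproteins of mucus and saliva. DMBT1, also called gp340 or salivary agglutinin, binds and clumps bacteria, and FCGBP is a mucus component that binds the Fc part of IgG. DMBT1 had 440 and 628 counts in the labelled knockout with EPZ-6438 (37.5 and 40.4 CPM), against 2 and 2 counts in the labelled knockout with DMSO (0.156 and 0.146 CPM). Cal27 with DMSO had 3 and 5 counts. The gene was thus at the edge of detection in all 4 DMSO libraries and clearly counted in both inhibitor libraries. The ratio of the summed counts was 260, with a 95% counting interval of 101 to 956. FCGBP stood at 139 and 147 CPM with EPZ-6438, against 1.71 and 1.61 CPM in the labelled knockout with DMSO, a log2 change of 6.43 ± 0.10 (SE, edgeR, 2 libraries each). The 2 libraries of Cal27 with DMSO had 1.25 and 0.895 CPM. These bulk values cannot tell a change in the number of cells that express a gene from a change in RNA per cell.

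LTF and LCN2 withhold iron. LTF is lactoferrin, an iron-binding protein of milk, tears and saliva, and LCN2 (NGAL) captures the bacterial siderophores that scavenge iron. LTF stood at 14.2 and 17.0 CPM with EPZ-6438, against 0.311 and 0.292 CPM in the labelled knockout with DMSO (4 counts each), and 1.32 and 0.895 CPM in Cal27 with DMSO. Its log2 change with the inhibitor was 5.66 ± 0.29 (SE). LCN2 was at 3244 and 3241 CPM with EPZ-6438, against 951 and 958 CPM in the labelled knockout with DMSO and 643 and 622 CPM in Cal27 with DMSO. The log2 change of LCN2 with the inhibitor was 1.77 ± 0.02 (SE), the smallest of the 8 tested genes.

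PI3, SLPI and WFDC2 belong to the whey acidic protein family, small cysteine-rich secreted proteins. PI3 (elafin) and SLPI inhibit neutrophil elastase, and WFDC2 is the tumour marker HE4. PI3 stood at 169 and 176 CPM with EPZ-6438, against 6.38 and 6.28 CPM in the labelled knockout with DMSO, a log2 change of 4.77 ± 0.08 (SE). SLPI stood at 268 and 280 CPM with the inhibitor against 55.0 and 54.9 CPM without, a log2 change of 2.32 ± 0.04 (SE). WFDC2 stood at 241 and 263 CPM against 64.1 and 71.7 CPM, a log2 change of 1.90 ± 0.05 (SE). Replicates of each group lay close together in all 3 genes.

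PIGR carries dimeric IgA from the tissue side of the epithelium to the lumen, where its outer part is cut off as secretory component. It stood at 193 and 199 CPM with EPZ-6438, against 12.8 and 14.5 CPM in the labelled knockout with DMSO and 9.18 and 11.5 CPM in Cal27 with DMSO. The log2 change with the inhibitor was 3.84 ± 0.07 (SE). JCHAIN, which encodes the chain that joins IgA for this transport and is made by plasma cells, was at 0 in all libraries.

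LYZ, the lysozyme that cuts bacterial cell walls, had 5 and 4 counts with EPZ-6438, against 0 and 1 in the labelled knockout with DMSO and 2 and 1 in Cal27 with DMSO. The ratio of summed counts was 8.76 with a counting interval of 1.21 to 384, so its size is barely known. DEFB1, a beta-defensin that many epithelia make without stimulation, had at most 6 counts in any library and was at 0 in 6 of the 10. No change in DEFB1 was detectable at this depth, where 3 counts correspond to 0.136 to 0.256 CPM.

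**Figure D1:**
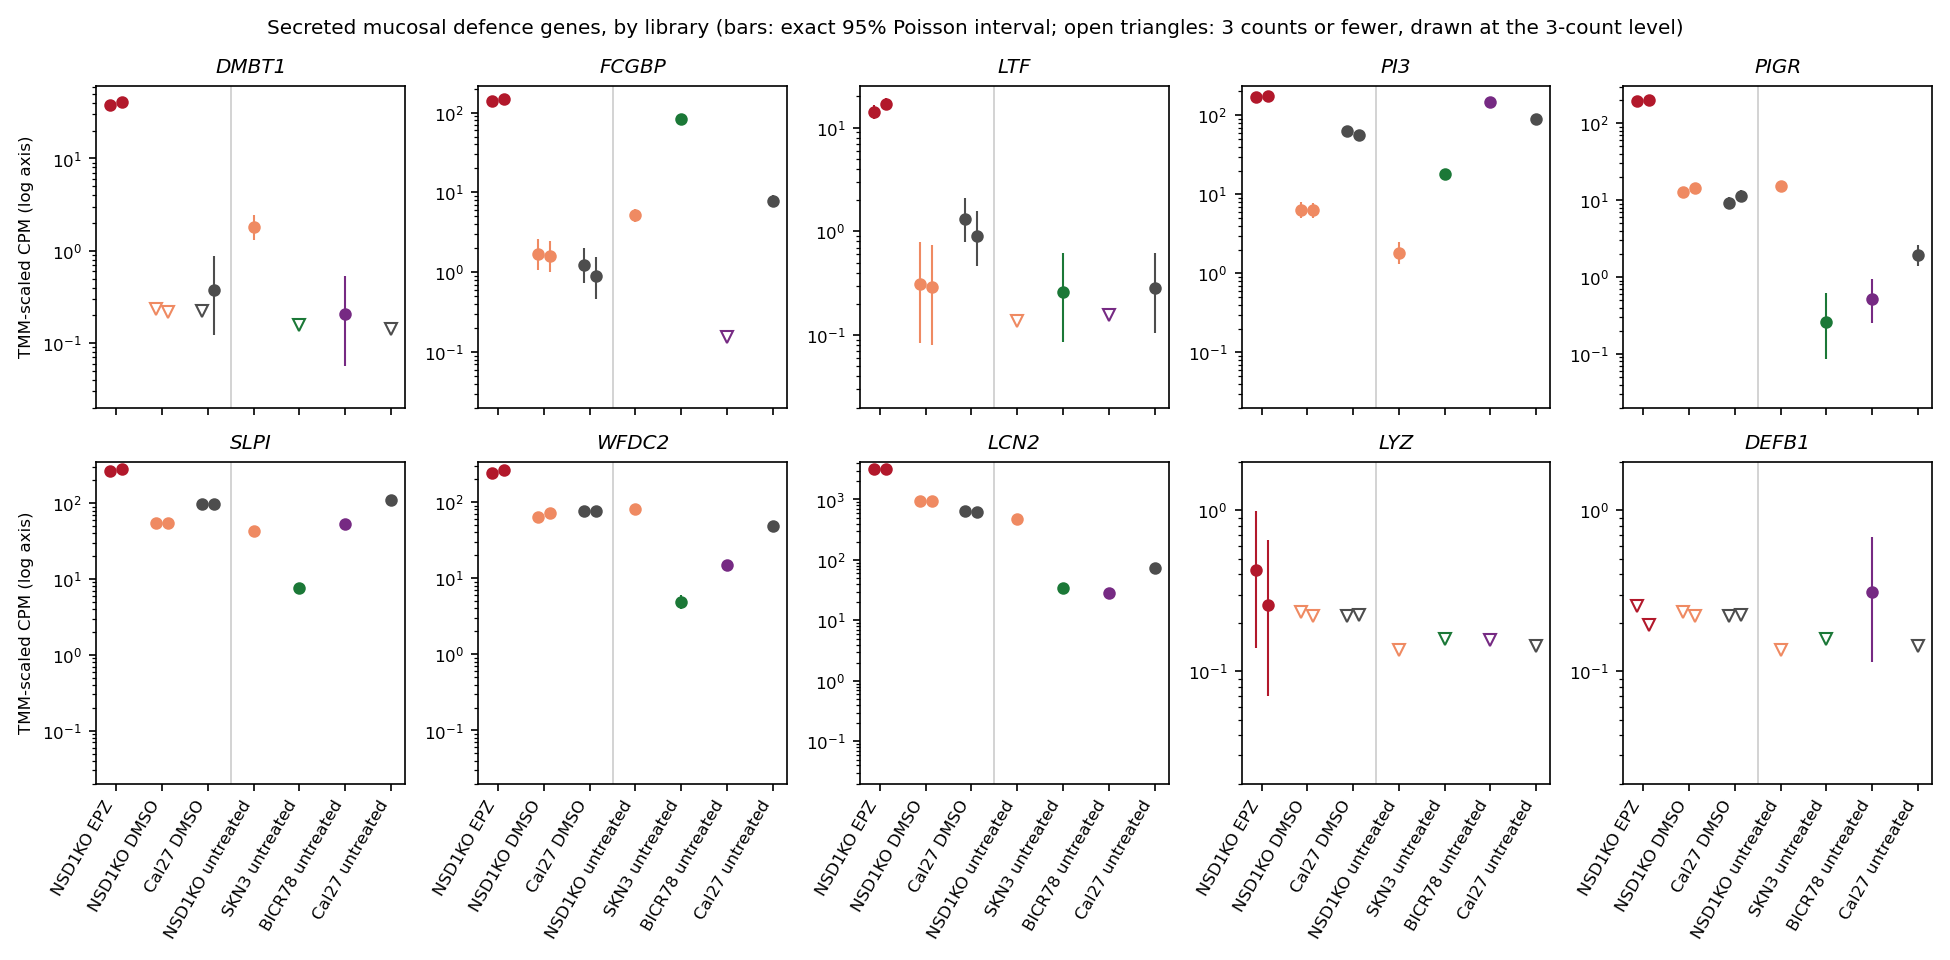
Level of each of the 10 genes in every library, as TMM-scaled CPM on a log axis, with the DMSO and EPZ-6438 libraries left of the grey line and the untreated ones right of it. Bars are exact 95% Poisson intervals and open triangles, drawn at the level of 3 counts, are libraries with 3 counts or fewer. Both EPZ-6438 libraries lie above the other 8 for the first 8 genes.

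As a description, the threshold used for all genes (adjusted p below 0.05) put all 8 tested genes higher with EPZ-6438 than with DMSO in the labelled knockout, as it did 25.6% of all tested genes, with 49.6% called either way. By at least 2-fold, all 8 were higher, against 9.06% of all tested genes, and none lower, against 0.906%. Genes were picked from this comparison, and DMBT1 passed the low-count filter only through the inhibitor libraries, so these counts are no support for a rise. The changes spread widely, from 1.77 for LCN2 to 7.93 ± 0.22 (log2, SE) for DMBT1.

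Treated knockout libraries were also higher than those of parental Cal27 with DMSO for all 8 genes, as they were for 26.1% of all tested genes, with 52.0% called either way and 6.39% higher by at least 2-fold. The 2 comparisons share the inhibitor libraries, and DMBT1 passed the low-count filter only through them. These counts are therefore a description and no support for a rise. PI3 was 1.54 ± 0.05 and WFDC2 1.72 ± 0.05 above the parental level (log2, SE). SLPI stood at 268 and 280 CPM against 96.4 and 96.9 CPM. LCN2 was 2.35 ± 0.02 above it, LTF 3.80 ± 0.23 and PIGR 4.24 ± 0.07. DMBT1 and FCGBP stood 6.99 ± 0.20 and 7.04 ± 0.11 above Cal27.

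With DMSO alone, the labelled knockout differed from Cal27 in both directions. PI3, SLPI, LTF and WFDC2 fell and LCN2 and PIGR rose, while DMBT1 and FCGBP did not pass the test. So 4 of 8 tested genes fell, where 19.5% of all tested genes did, and 2 rose, where 16.4% did. DMBT1 is among the 8 only through the inhibitor libraries. LTF, at 4 counts in each DMSO library of the labelled knockout, passed the low-count filter through other libraries and could hardly come out higher. The comparison shares the knockout DMSO libraries with the inhibitor comparison that genes were picked from, so the directions are not independent of that choice.

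PI3 fell most, to 6.38 and 6.28 CPM in the labelled knockout against 62.6 and 55.6 CPM in the parental libraries (log2 -3.23 ± 0.10, SE; adjusted p = 7.71e-14, edgeR). SLPI fell to 55.0 and 54.9 CPM against 96.4 and 96.9 CPM (log2 -0.82 ± 0.05; adjusted p = 7.82e-10, edgeR). LTF had 4 and 4 counts in the labelled knockout against 18 and 12 in Cal27 (log2 -1.86 ± 0.46; adjusted p = 0.00472, edgeR). Without replicate 1 of Cal27 the adjusted p of LTF was 0.0557. WFDC2 was at 64.1 and 71.7 CPM in the labelled knockout against 75.8 and 77.1 CPM in Cal27 (log2 -0.18 ± 0.06; adjusted p = 0.0347, edgeR). That call was lost in DESeq2 (adjusted p = 0.06), with library size alone as the scale (0.126), and without replicate 1 of Cal27 (0.0864), replicate 2 of Cal27 (0.136) or replicate 1 of the labelled knockout (0.329).

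LCN2 rose to 951 and 958 CPM in the labelled knockout against 643 and 622 CPM in Cal27 (log2 0.58 ± 0.02; adjusted p = 7.3e-12, edgeR). PIGR was at 12.8 and 14.5 CPM against 9.18 and 11.5 CPM (log2 0.40 ± 0.12; adjusted p = 0.0158, edgeR). The PIGR call was lost without replicate 1 of Cal27 (adjusted p = 0.202) or replicate 2 of the labelled knockout (0.165). FCGBP had 22 and 22 counts in the labelled knockout against 17 and 12 in Cal27 (log2 0.61 ± 0.30, adjusted p = 0.146, edgeR). DMBT1 had 4 summed counts against 8 (adjusted p = 0.391, edgeR), so no difference was detectable at this depth.

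**Figure D2:**
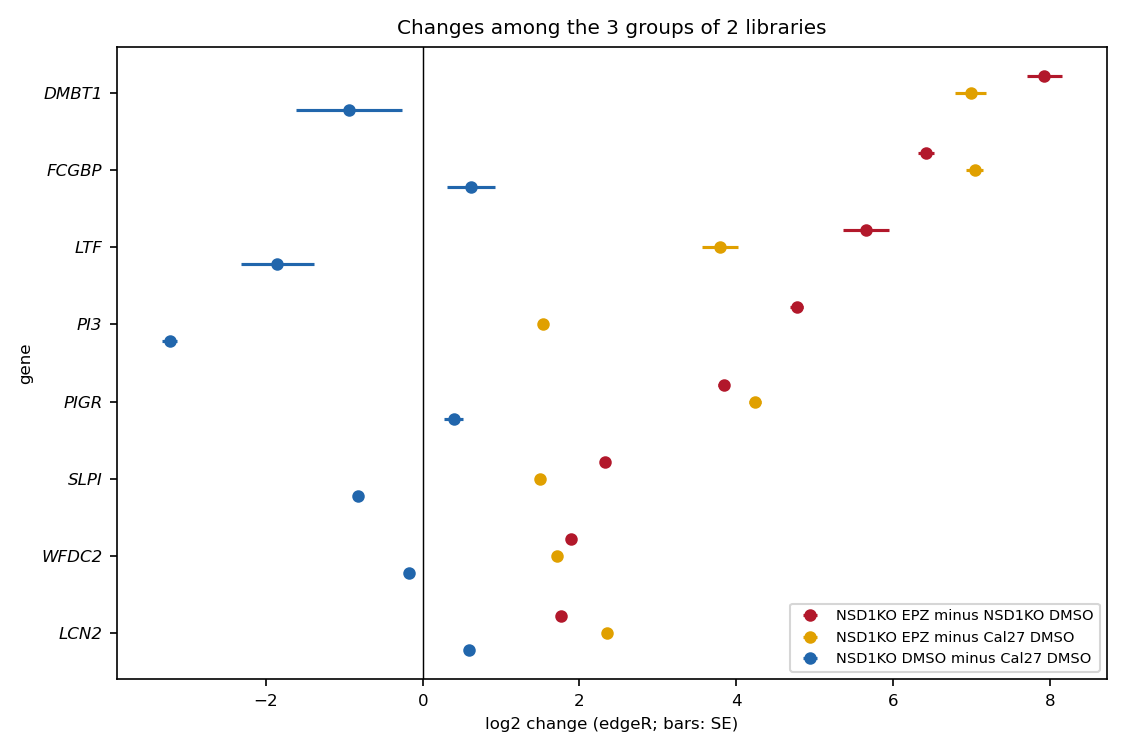
Log2 change of each of the 8 tested genes in the 3 comparisons among groups of 2 libraries (edgeR, bars are SE). Changes with EPZ-6438 in the labelled knockout are all to the right of 0, from 1.77 to 7.93, while those of the labelled knockout with DMSO against Cal27 with DMSO run from -3.23 to 0.61.

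The untreated pair gives the same contrast of labelled knockout and Cal27 in other libraries, with 1 library a side and no replicate check. The genes were chosen with earlier results of these data known, so the pair is not taken as independent of that choice. PI3 had 40 counts in the untreated labelled knockout against 1877 in untreated Cal27, or 1.82 against 89.3 CPM. It was 49.2-fold lower, with a counting interval of 35.99 to 69.1. SLPI was at 42.7 CPM against 111 CPM, which is 2.59-fold lower (2.40 to 2.80). LTF had 1 count against 6.

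LCN2 and PIGR were higher in that pair. LCN2 stood at 483 CPM in the untreated labelled knockout against 73.6 CPM in untreated Cal27, a ratio of 6.56 (6.22 to 6.93). PIGR stood at 15.1 CPM against 1.95 CPM, a ratio of 7.72 (5.57 to 10.96). WFDC2 was at 80.8 CPM against 47.8 CPM, a ratio of 1.69 (1.56 to 1.83). DMBT1 had 40 counts against 2, a ratio of 19.1 with a wide interval of 4.95 to 163. FCGBP was at 5.22 CPM against 7.90 CPM. Of the 6 genes with at least 50 counts in the pair, LCN2 and PIGR were higher by 2-fold or more, against 5.15% of 12460 genes, and PI3 and SLPI lower, against 7.68%.

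A fit of 8 libraries set the change of the labelled knockout in the untreated pair against that in the DMSO set. Neither untreated group was replicated, so the fit takes its spread from the DMSO and EPZ-6438 groups, and its calls hold only if the untreated libraries vary as those do. Under that assumption a difference was called for 7 of the 8 genes, as for 29.8% of 13999 genes. The log2 change of LCN2 was 2.72 in the untreated pair and 0.59 with DMSO, a difference of 2.13 ± 0.05 (SE), and the difference of PIGR was 2.55 ± 0.24. For PI3 the difference, untreated minus DMSO, was -2.39 ± 0.23, and for SLPI -0.55 ± 0.08. The fitted values of DMBT1 were 4.15 untreated and -0.94 with DMSO, those of FCGBP -0.59 and 0.62, and those of WFDC2 0.76 and -0.17. With DMSO the values of DMBT1 and FCGBP were not called and that of WFDC2 was lost under other settings, so no opposite directions are shown. LTF gave no call (-0.60 ± 1.12).

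Cal27 itself differed between the sets. LCN2 was at 643 and 622 CPM in Cal27 with DMSO against 73.6 CPM untreated, 8.74 and 8.45 times as much. PIGR was at 9.18 and 11.5 CPM with DMSO against 1.95 CPM untreated, whereas FCGBP was at 1.25 and 0.895 CPM against 7.90 CPM. Summed squamous markers were 8754 and 8658 CPM in Cal27 with DMSO against 25622 CPM untreated. COL17A1, a gene of the basal layer that is outside the marker lists and the naming rule, was at 27.8 and 28.3 CPM against 1073 CPM. DMSO, the culture and the preparation of the 2 sets cannot be told apart.

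**Figure D3:**
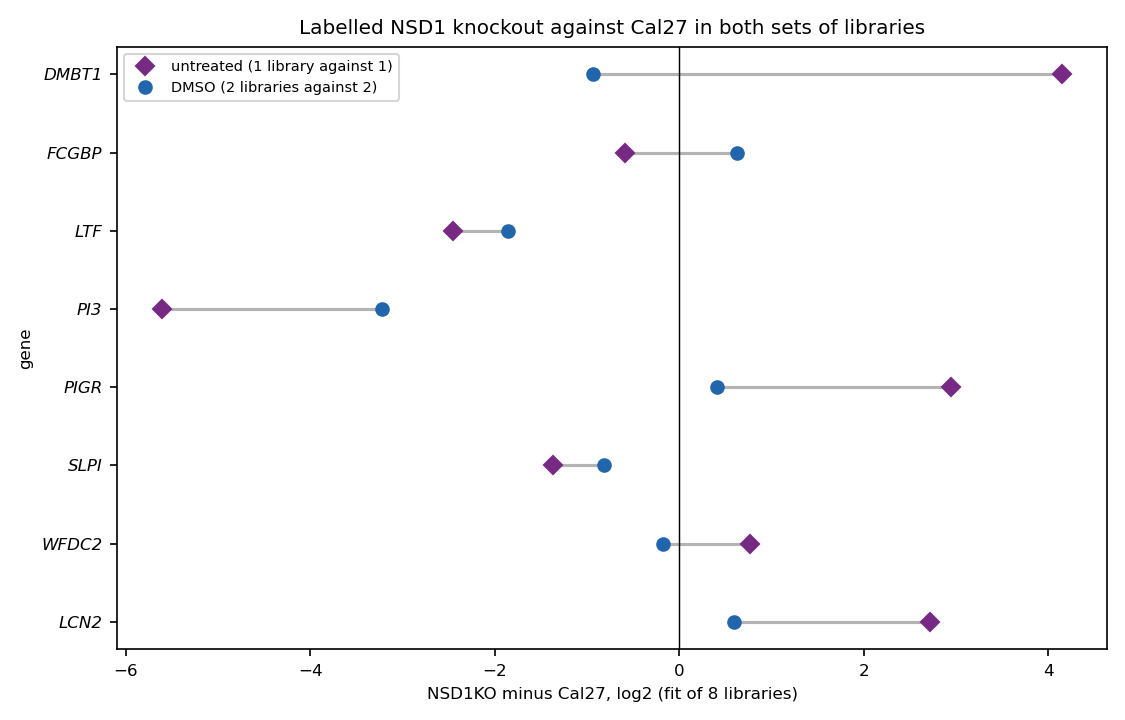
Log2 change of the labelled knockout against Cal27 in the untreated pair (diamonds, 1 library a side) and with DMSO (circles, 2 libraries a side), both from a fit of 8 libraries. PI3, SLPI and LTF lie left of 0 in both sets, LCN2 and PIGR right of 0 in both, and the points of DMBT1, FCGBP and WFDC2 on either side of it, though the DMSO values of DMBT1 and FCGBP were not called.

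The other cancer lines had their own mixtures, described from single libraries. In SKN3, FCGBP stood at 84.4 CPM against 7.90 CPM in untreated Cal27, a ratio of 10.7 (9.10 to 12.6). In the same library PI3, SLPI, LCN2 and WFDC2 were lower by at least 2-fold, SLPI by 14.5-fold (12.2 to 17.2) and WFDC2 by 9.76-fold (7.88 to 12.2). Of the 5 genes with at least 50 counts in that pair, 1 was higher and 4 lower by 2-fold, against 19.6% and 18.9% of 13082 genes.

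In BICR78, PI3 was at 147 CPM against 89.3 CPM in untreated Cal27, a ratio of 1.65 (1.56 to 1.75). FCGBP had 3 counts in BICR78 against 166, and SLPI, LCN2, PIGR and WFDC2 were 2.08-fold, 2.55-fold, 3.75-fold and 3.19-fold lower. That made 5 of 6 genes lower by 2-fold or more, against 9.42% of 13043 genes, and none higher, against 15.7%. Across the 4 untreated libraries LCN2 was lowest in BICR78 at 28.9 CPM and next lowest in SKN3 at 34.8 CPM. Neither LTF nor DMBT1 passed 6 counts in SKN3, BICR78 or untreated Cal27.

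PI3, SLPI and WFDC2 lie on chromosome 20 within 306631 bases, from 45174902 to 45481532 (GRCh38.p14), in a cluster that holds other genes of the whey acidic protein family and the semenogelins. Of the 5 other protein-coding genes of that stretch that were tested, 4 rose with EPZ-6438, where 25.6% of all tested genes did, and 2 rose in the labelled knockout with DMSO, where 16.4% did. SEMG1 is among the 4 and passed the low-count filter only through the inhibitor libraries. SEMG1, a semenogelin named after its values were seen, had 28 and 34 counts with EPZ-6438, against 0 and 2 in the labelled knockout with DMSO and 6 and 5 in Cal27 with DMSO. The ratio of its summed counts with the inhibitor was 30.2 (8.01 to 255). SDC4, DBNDD2 and PIGT rose by 0.46, 0.29 and 0.20 (log2, edgeR, adjusted p below 0.05), and SYS1 was at -0.03 and did not pass. The remaining genes are DMBT1 on chromosome 10 (122560754 to 122643736), FCGBP on 19 (39863323 to 39934634), LTF on 3 (46435645 to 46485234), LCN2 on 9 (128149453 to 128153453), PIGR on 1 (206928522 to 206946466), LYZ on 12 (69348381 to 69354234) and DEFB1 on 8 (6870592 to 6877936).

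Of 15 further genes of the whey acidic protein family, 2 were tested. WFDC5 rose with EPZ-6438 to 1.97 ± 0.49 CPM, against 0.645 ± 0.19 CPM in the labelled knockout with DMSO (SD, n = 2 libraries each; edgeR, adjusted p = 0.00423), and neither gene was called between the labelled knockout and Cal27.

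Other defence genes of mucosae were taken as a list of 47, of which 21 were tested. The list includes the membrane oxidases DUOX1 and DUOX2 and their maturation factors DUOXA1 and DUOXA2, which are not secreted. With EPZ-6438, 13 of the 21 rose and none fell, against 25.6% and 23.9% of all tested genes. Of the 21, DEFB4A, DEFB4B, LPO and TCN1 passed the low-count filter only through the inhibitor libraries and so could hardly come out lower, and 9 of the other 17 rose. Over the 21, the list's median log2 change was 1.58 (1.24 with genes at 0 set to the bound of 3 counts) beside 0.00 over all tested genes. The list was chosen with earlier results of these data known, so its counts and median are a description. AGR2, which folds mucins, rose to 111 ± 7.3 CPM against 20.8 ± 0.67 CPM (SD, n = 2 each; log2 2.42 ± 0.07; edgeR, adjusted p = 1.21e-14). PGLYRP4, a peptidoglycan recognition protein, rose to 23.6 ± 0.72 CPM against 3.32 ± 0.04 CPM (edgeR, adjusted p = 1.2e-10). LPO, a salivary peroxidase, had 44 summed counts against 4, a ratio of 10.7 (3.90 to 41.0). DEFB4A, beta-defensin 2, had 92 against 1, and its near-identical copy DEFB4B had 30 against 9. The split of reads between the copies is uncertain, and together they had 122 counts against 10.

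Between the labelled knockout and Cal27 with DMSO, 9 of the 21 fell, where 19.5% of all tested genes did, and 4 rose, where 16.4% did, with a median of -0.38 beside -0.01 over all tested genes. SFTPA2 and SFTPA1, near-identical copies of a surfactant protein, had 0 counts in the labelled knockout against 62 and 40 in Cal27, at least 20.3-fold and 13.1-fold lower by a floor of 3 counts over the group. Both are among the 9, passed the low-count filter only through the Cal27 libraries and could hardly come out higher. DEFB4A is among the 9 too, so the count of 9 is a description. ANG, an antimicrobial ribonuclease, fell to 1.47 ± 0.01 CPM against 4.69 ± 1.4 CPM (SD, n = 2 each; edgeR, adjusted p = 0.000302). DEFB4A had 1 summed count against 13, but its copy DEFB4B had 9 against 7, and together they had 10 in the labelled knockout against 20 in Cal27. RNASE7, a ribonuclease of skin and mucosa, was 3.18 ± 0.06 above Cal27 with DMSO in the labelled knockout with EPZ-6438 (log2, SE; edgeR, adjusted p = 6.48e-17), at 151 ± 2.3 CPM against 16.6 ± 0.76 CPM. RNASE7 was already higher in the labelled knockout with DMSO, at 32.6 CPM (log2 0.97 ± 0.08, SE, edgeR, adjusted p = 3.51e-08). Against Cal27 with DMSO, 12 of the 21 genes were higher with the inhibitor and 5 lower, where 26.1% and 25.9% of all tested genes were. SFTPA1 and SFTPA2 are among the lower genes, with 0 and 3 summed counts with the inhibitor against 40 and 62 in Cal27. LPO is among the higher ones, with 44 summed counts against 3. DEFB4A, DEFB4B, LPO and TCN1 among the 21 passed the low-count filter only through the inhibitor libraries.

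Receptors and transcription factors that are known to act on such genes were taken as a list of 26, all tested. With EPZ-6438, 18 rose and 1, TRAF3IP2 (named after its values were seen), fell, against 25.6% and 23.9% of all tested genes, with a median log2 change of 0.43. SPDEF passed the low-count filter only through the inhibitor libraries. This list too was chosen with earlier results of these data known, so its counts and median are a description. ELF3, an epithelial factor of the ETS family, rose to 89.6 ± 7.8 CPM against 24.8 ± 0.79 CPM in the labelled knockout with DMSO (SD, n = 2 each; edgeR, adjusted p = 1.01e-12). SPDEF, an ETS factor of secretory cells, had 120 summed counts against 1, a ratio of 117 (20.6 to 4653). TLR4, a receptor for bacterial lipopolysaccharide, had 92 against 1. TLR2, a receptor for bacterial lipoproteins, rose to 37.3 ± 3.4 CPM against 15.5 ± 11 CPM, so its DMSO libraries differed widely (edgeR, adjusted p = 0.000655).

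In the labelled knockout with DMSO against Cal27 with DMSO, 11 of the 26 fell, where 19.5% of all tested genes did, and 5 rose, where 16.4% did, with a median of -0.20. ELF3 fell to 24.8 ± 0.79 CPM against 63.0 ± 1.8 CPM (edgeR, adjusted p = 3.37e-10, SD, n = 2 each), and CEBPA, a C/EBP factor, to 3.46 ± 0.38 CPM against 6.99 ± 0.19 CPM (adjusted p = 0.000699, edgeR). IL22RA1, a receptor chain for IL-22, fell to 0.640 ± 0.02 CPM against 3.92 ± 0.06 CPM (adjusted p = 1.38e-05, edgeR), and TLR4 had 1 summed count against 64. Against Cal27 with DMSO, 13 of the 26 were higher in the labelled knockout with EPZ-6438 and 3 lower. Among all tested genes, 26.1% were higher and 25.9% lower. IL22RA1 was lower, at 1.44 CPM against 3.92 CPM (log2 -1.43 ± 0.29, SE, edgeR, adjusted p = 0.000614). TLR2 was higher by 1.48 ± 0.27 (log2, SE, edgeR, adjusted p = 0.000176). The factor NFKBIZ was 0.97 ± 0.05 above Cal27 with DMSO in the labelled knockout with EPZ-6438 (log2, SE, edgeR, adjusted p = 4.61e-11). SPDEF had 120 summed counts there against 8 in Cal27 with DMSO. It passed the low-count filter only through the inhibitor libraries, so its counts are a description.

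**Figure D4:**
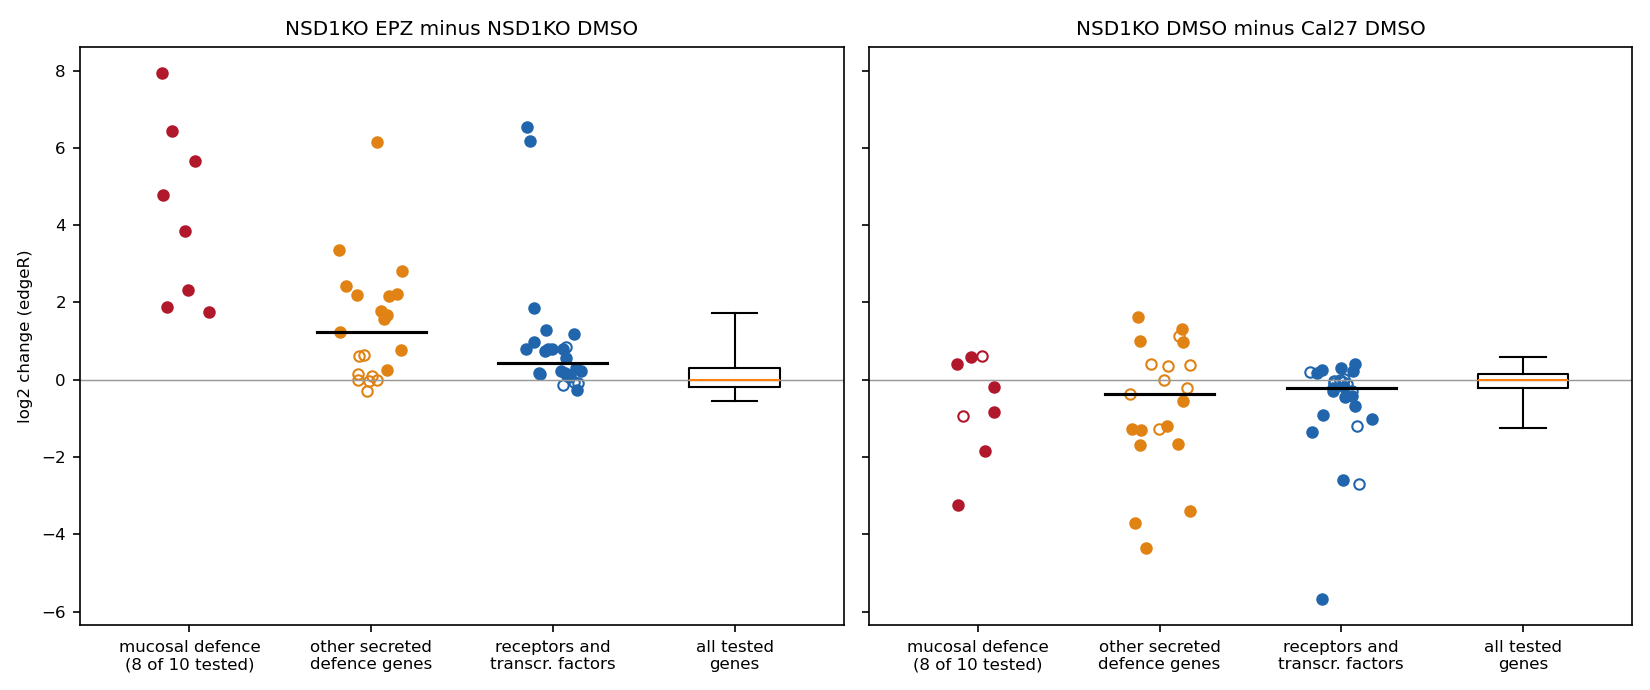
Log2 changes with EPZ-6438 in the labelled knockout (left) and of the labelled knockout against Cal27 with DMSO (right). Points are genes, filled where called at an adjusted p below 0.05, with genes at 0 in a group drawn at their bound of 3 counts. Black lines are list medians, and the box gives the 5th, 25th, 50th, 75th and 95th percentiles of all 13241 tested genes. Medians are 1.24 for the other defence genes and 0.43 for the receptors and factors on the left, and -0.38 and -0.20 on the right. The other defence genes are labelled secreted, though DUOX1, DUOX2, DUOXA1 and DUOXA2 among them are not.

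The profiles over the 10 libraries were compared by the root mean square difference of log2 CPM after each gene was centred on its mean, which is a description. Among all tested genes WFDC2 lay nearest to CTSO (0.30) and HLA-F (0.33), and SLPI to PARP9 (0.33) and SAMD9 (0.37). LCN2 lay nearest to ALOX5 (0.39) and the neutrophil attractant CXCL8 (0.47), LTF to GPR141 (0.48) and the cytokine IL19 (0.66), and PIGR to STC1 (0.64) and the cytokine IL20 (0.80). PI3 was nearest to SNCAIP (0.72) and SLC1A1 (0.90), FCGBP to AZGP1 (1.45) and TRIM49 (1.71), and DMBT1 to C4orf19 (1.04) and PIP (1.37). Within the 8 genes SLPI and WFDC2 were nearest to each other (0.74), as were LCN2 and PIGR (0.82), while FCGBP lay 2.28 from its nearest, LTF.

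Markers of other cell types were at low levels. The 8 gland secretory markers summed to 2.73 and 3.09 CPM with EPZ-6438, against 0.934 and 0.877 CPM in the labelled knockout with DMSO and 0.881 and 0.746 CPM in Cal27 with DMSO. SCGB1A1, a protein of airway secretory cells, had 17 and 28 counts with the inhibitor against 0 and 0, at least 14.6-fold higher by the floor over the group. The 6 fibroblast markers summed to 21.4 and 25.2 CPM with EPZ-6438, against 9.96 and 7.52 CPM in the labelled knockout with DMSO and 20.6 and 18.9 CPM in Cal27 with DMSO. Of the 5 fibroblast markers tested, 4 rose with EPZ-6438 and 3 fell in the labelled knockout with DMSO against Cal27. COL3A1 of these markers, and SCGB1A1, passed the low-count filter only through the inhibitor libraries. Of the 9 squamous markers, 3 rose and 6 fell with EPZ-6438, and 8 fell in the labelled knockout with DMSO. Among all tested genes, 25.6% rose and 23.9% fell with EPZ-6438, and 19.5% fell in the labelled knockout with DMSO. CSF1R, the tested leukocyte marker, rose with EPZ-6438 by 1.54 ± 0.38 (log2, SE; edgeR, adjusted p = 0.00277). The part of all these markers in the changes of the 10 genes was not tested.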

How the data were processed

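RNA was measured in 10 libraries, and 7 CUT&Tag samples of the series were not analysed here. The deposited table holds whole-number counts for each gene, not normalized by the authors. The submitters' processing notes list build hg38 and, without roles, HISAT2 2.1.0, featureCounts 1.6.1, Picard 2.23.1 and CASAVA 1.7. Annotation and strand setting: not given in the sources used here. Hence reads of overlapping or near-identical genes may be split or shared.

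The 3 groups of 2 libraries entered one model in edgeR 4.0.16 (under R 4.3.3), with its default low-count filter, TMM scaling and quasi-likelihood F test. Calls needed an adjusted p (Benjamini-Hochberg, over all tested genes) below 0.05, and the fit was tested on simulated counts. The simulation gave every gene the same spread and changed genes only in the labelled knockout with DMSO. It therefore does not check the p-values for the spread of these data. No label says that replicates were separate cultures, so the p-values speak to the spread between libraries alone, and that spread may be technical. Replicate pairs differed beyond sampling noise (chi-square per degree of freedom from 1.76 to 2.16), so each library counts as 1 sample. Pairs of single libraries have no test of their own, and their ratios carry exact 95% intervals that cover counting error only. Log2 CPM used a prior count of 2.

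The 10 genes and all lists were chosen with earlier results of these data known. Text names the 10 genes, up to 4 genes per list and comparison with the largest called change, and the 2 nearest profiles for each of the 10 genes with at least 50 counts. The fit across 8 libraries was added after seeing the data, and takes the unreplicated untreated libraries to vary like the replicated groups. Alternatives used DESeq2 1.42.0, other scales and filters, only the 2 groups compared, a replicate block, the untreated pair, and leaving out each library.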

Additional observations from a re-analysis of the deposited data

Results flagged for a closer look

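In the fit of 8 libraries, 7 of the 8 tested genes were called for a difference between the change of the labelled knockout in the untreated pair (1 library a side) and that with DMSO (2 a side), as were 29.8% of all genes tested there. Neither untreated group was replicated, so these calls rest on the assumption that the untreated libraries vary like the replicated groups, which these data cannot check. As untreated minus DMSO on the log2 scale, the differences were 5.09 ± 0.95 for DMBT1 (SE, edgeR), -1.21 ± 0.34 for FCGBP, -2.39 ± 0.23 for PI3, -0.55 ± 0.08 for SLPI, 2.13 ± 0.05 for LCN2, 2.55 ± 0.24 for PIGR and 0.93 ± 0.10 for WFDC2. The DMBT1 value rests on 40 and 2 counts in the untreated pair and on 4 and 8 summed counts with DMSO. The FCGBP call was lost without replicate 2 of Cal27 (edgeR, adjusted p = 0.0734) or replicate 1 of the DMSO knockout libraries (0.0549). The sets also differ in the summed squamous markers of Cal27, at 8754 and 8658 CPM with DMSO against 25622 CPM untreated, whose part in these differences was not tested.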

How the results depend on the processing

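Over the alternatives the inhibitor's log2 change, given as a description, ran from 7.87 to 8.01 for DMBT1 and from 1.76 to 1.80 for LCN2. In the labelled knockout with DMSO against Cal27, 6 genes were called as reported, from 3 to 6 with each library left out in turn, and 5 with DESeq2. Adding the untreated pair left 3 called genes, all lower, and 2958 called genes in all against 4749. It also turned DMBT1 to 1.83, FCGBP to -0.17 and WFDC2 to 0.14 (log2, adjusted p = 0.165, 0.657 and 0.609). LCN2 and PIGR lost their calls there (log2 1.26 and 1.11, adjusted p = 0.0598 and 0.106). The cause was not tested. Leaving out each library gave 3463 to 4768 called genes in all in this comparison. With the replicate block 6 of the 8 genes and 4512 genes in all were called. Same-numbered libraries did not deviate together (correlations over genes from -0.05 to 0.01), so they share only a number. Library size alone gave 2978 higher and 2088 lower genes, against 2169 and 2580 as reported, and lost the WFDC2 call. Depth limits DMBT1, LTF, LYZ and DEFB1 wherever a group has 8 summed counts or fewer.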
